A study of Mus musculus with 12 samples.

Results

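Non-cycling wells were the wells of the series that held at least 5000 unique molecular identifiers (UMIs, each marking 1 captured transcript) outside the ERCC spike-in rows and no UMI of 7 genes of cell division; they were chosen by the measured counts of Mki67, Top2a, Ccnb1, Ccna2, Cdk1, Birc5 and Rrm2, which are therefore no finding here. The rule found 58 wells among 4608 in all, and among 2644 wells with at least 5000 UMIs (2.19%). The other 2586 wells of that depth held a UMI of at least 1 of the 7 genes and are called cycling here. The name states only what the counts held: resting cells, cells in early G1 and dividing cells with few captured transcripts cannot be told apart by it. The 58 wells had a median of 8754 UMIs (range 5280 to 25369) and the cycling wells one of 19860 (5003 to 121616), so gene levels of the 2 classes were compared at a common depth of 5000 UMIs and again between wells of similar depth.

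The 12 plates of 384 wells held LSK cells (early blood progenitors that carry Sca-1 and Kit and lack lineage markers) sorted by FACS from the livers of C57BL/6J fetuses at embryonic day 18.5 and processed by the SORTseq method. Per the genotype labels, 3 plates were wild type (WT), 3 were Rev1 knockout (Rev1-/-), 2 were homozygous for Pcna K164R and 4 were double mutants (homozygous for Pcna K164R and Rev1-/-). The labels name no treatment and do not say which fetuses, or how many, gave a plate, so the spread between plates may be technical. Plates are numbered in the order of deposit, and the 3 sort dates are called sessions 1 to 3. Both plates of Pcna K164R, WT replicate 1 and the first 2 double mutant plates were of session 1. Session 2 held Rev1 knockout replicate 1 and double mutant replicate 3, and session 3 the rest. All plates used the same 384 well names, which name positions and not shared cells. Median UMIs over wells of at least 5000 ranged from 6740 in double mutant replicate 3, which had 9 such wells, to 38169 in double mutant replicate 2. Rev1 reached 14.0 CPM (counts scaled to a common library total) in the library labelled double mutant replicate 4, inside the WT range of 11.0 to 21.2. Double mutant replicates 1, 2 and 3 stood at 1.299, 2.50 and 0, the last over only 77143 UMIs, and Rev1 knockout replicates 1, 2 and 3 at 6.10, 1.36 and 4.11. The Pcna K164R plates, for which the labels name no Rev1 mutation, stood at 11.1 and 7.97. The library labelled double mutant replicate 4 goes against its label by this measure, and the shares of non-cycling wells are given with and without it.

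As background, haematopoietic stem cells rest for long periods in the adult bone marrow, whereas in the fetal liver stem cells and multipotent progenitors divide often. A cell that leaves the cycle stops making the transcripts of DNA replication and mitosis. In resting cells the DREAM complex represses these genes through CHR elements and E2F sites near their start sites, and CDK inhibitors such as p21 (Cdkn1a) keep it assembled. PCNA is the clamp that holds polymerases on DNA, the lysine changed in Pcna K164R takes the ubiquitin that recruits translesion polymerases, and REV1 is such a polymerase.

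The 7 rule genes are chromatin and division proteins: Mki67 coats mitotic chromosomes, Top2a untangles DNA, Ccnb1, Ccna2 and Cdk1 form the mitotic and S-phase kinases, Birc5 (survivin) belongs to the chromosomal passenger complex and Rrm2 makes deoxynucleotides. The promoters of 3 of them are shown because the rule rests on these genes being absent together. The sequences are the 250 bases before the start site in RefSeq's annotation of GRCm38.p6, 5′ to 3′ on the gene's strand, and 6 of the 7 genes were found in that table. Capitals mark every match of 3 motifs searched on both strands: TTTGAA (a CHR element), CCAAT (bound by NF-Y) and TTCCCGCC (an E2F site), with a match on the other strand printed as its reverse complement. The motifs share no overlap in these windows.
Ccnb1, chr13:100786487-100786736, minus strand: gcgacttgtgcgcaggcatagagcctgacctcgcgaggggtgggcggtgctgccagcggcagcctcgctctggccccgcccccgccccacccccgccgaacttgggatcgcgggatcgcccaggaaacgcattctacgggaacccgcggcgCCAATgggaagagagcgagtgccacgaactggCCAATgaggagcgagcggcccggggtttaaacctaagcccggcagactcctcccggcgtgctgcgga
Cdk1, chr10:69352913-69353162, minus strand: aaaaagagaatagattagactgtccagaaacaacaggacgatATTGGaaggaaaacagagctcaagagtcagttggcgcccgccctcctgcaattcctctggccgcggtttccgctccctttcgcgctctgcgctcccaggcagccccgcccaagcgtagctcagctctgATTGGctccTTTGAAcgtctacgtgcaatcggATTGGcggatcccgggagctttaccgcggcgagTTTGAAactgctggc
Birc5, chr11:117848987-117849236, plus strand: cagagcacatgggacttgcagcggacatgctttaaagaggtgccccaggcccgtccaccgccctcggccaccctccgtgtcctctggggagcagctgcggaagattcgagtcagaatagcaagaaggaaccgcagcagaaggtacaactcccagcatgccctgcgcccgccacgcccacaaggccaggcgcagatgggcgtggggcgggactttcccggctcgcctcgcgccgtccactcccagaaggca
Ccnb1 held 2 CCAAT matches, Cdk1 held 3 CCAAT and 2 TTTGAA matches, and Birc5 held none of the 3 motifs in this window. Over all 32851 promoters of the table cut to the same 250 bases, 33.8% held CCAAT, 15.99% held TTTGAA and 1.86% held TTCCCGCC. A match describes letters and does not show that a factor binds there.

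The rule's own values are given as a description. Cycling wells of the 7 plates that held non-cycling wells had 286, 540 and 683 CPM of Top2a in the lowest, median and highest plate, and 70.7% of all cycling wells held a Top2a UMI. Mki67 stood at 188, 349 and 557 CPM there and was seen in 57.9% of cycling wells. Ccnb1 was the least often seen of the 7, in 36.9% of cycling wells. Just outside the rule lay 102 wells with a single UMI of the 7 genes and 122 with 2 such UMIs. Just below the depth limit, 12 of 90 wells of 4000 to under 5000 UMIs lacked the 7 genes, against 5 of 85 wells of 5000 to under 6000 UMIs.

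Non-cycling wells were found on 7 of the 12 plates and on no double mutant plate. WT replicates 1, 2 and 3 held 0, 4 and 11 of them, or 0%, 1.83% and 7.86% of the plate's wells of at least 5000 UMIs. Rev1 knockout replicates 1, 2 and 3 held 27, 2 and 3, or 9.12%, 1.04% and 1.46%. Pcna K164R replicates 1 and 2 held 2 and 9, or 0.635% and 3.47%. Rev1 knockout replicate 1 alone gave 46.6% of the 58 wells. Summed by genotype the shares were 2.09% in WT (15 of 719 wells, exact 95% interval 1.17% to 3.42%), 4.60% in Rev1 knockout (32 of 695, 3.17% to 6.44%) and 1.92% in Pcna K164R (11 of 574, 0.960% to 3.40%). The 656 double mutant wells held none, which allows a share of up to 0.457% by 3 counts of that total (exact 95% upper limit 0.561%). With the library labelled double mutant replicate 4 left out, the remaining 575 wells allow up to 0.522% (exact upper limit 0.639%). These intervals and limits cover counting error only. In WT, Rev1 knockout and Pcna K164R the spread between plates of a genotype was wider than the interval, while every double mutant plate stood at 0%.

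Because deep wells are less likely to lack the 7 genes, the share expected in a draw of 5000 UMIs from each well was computed exactly and averaged per plate. It was 2.55%, 4.08% and 17.8% in WT replicates 1, 2 and 3. In Rev1 knockout replicates 1, 2 and 3 it was 27.8%, 8.87% and 7.19%, and in Pcna K164R replicates 1 and 2 it was 5.68% and 10.7%. Double mutant replicates 1 and 2 and the library labelled double mutant replicate 4 had 1.03%, 0.552% and 0.829%, below the plates of the other genotypes. Double mutant replicate 3 had too few wells to be included: of its 9 wells, 0.838 were expected to lack the 7 genes, a share above those of the other double mutant plates and of 5 of the 8 plates of other genotypes. The means were 8.15% ± 8.41 (SD, n = 3) in WT and 14.6% ± 11.4 (n = 3) in Rev1 knockout. For Pcna K164R it was 8.16% ± 3.52 (n = 2), and for double mutants 0.805% ± 0.242 (n = 3).

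In exact 2-sided permutation tests over plates, double mutants differed from WT by -7.34 percentage points, from Rev1 knockout by -13.8 and from Pcna K164R by -7.36, each with p = 0.1. That is the smallest p these plate numbers allow, so none of the 5 genotype pairs compared could pass a threshold of 0.05, and the Benjamini-Hochberg adjusted p was 0.167 for each of the 3. With the library labelled double mutant replicate 4 left out, the double mutant mean was 0.793% and the differences were -7.36, -13.8 and -7.37 points, with exact permutation p of 0.3, 0.3 and 0.333 (adjusted 0.556 each) where 0.1, 0.1 and 0.333 were the smallest possible. The same p values were found without double mutant replicate 1 and without replicate 2. The difference from WT was -2.57 points in wells of at least 10000 UMIs (permutation p = 0.2), where double mutant replicate 1, at 0.280%, lay above WT replicate 2, at 0.225%. It was -11.3 points from 2000 UMIs (permutation p = 0.2) and -3.23 with all UMIs (permutation p = 0.4). Rev1 knockout exceeded WT by 6.47 points (permutation p = 0.5, adjusted 0.625), and without Rev1 knockout replicate 1 the difference was -0.12. Pcna K164R and WT differed by 0.0149 points (permutation p = 1).

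**Figure D1:**
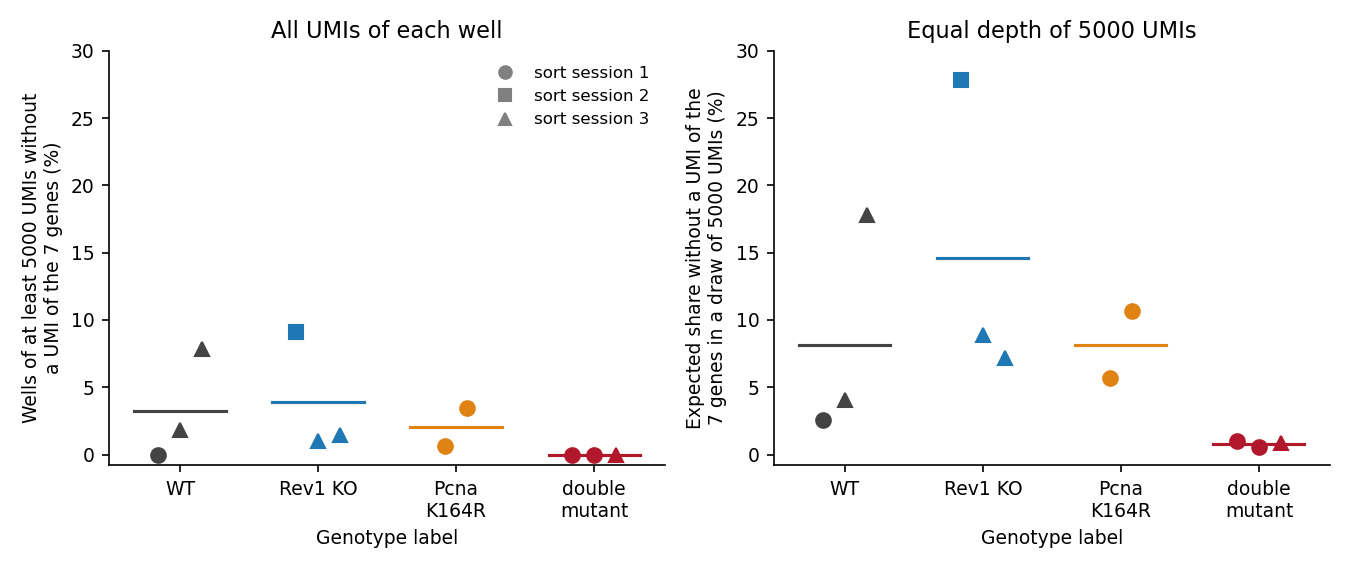
Share of wells of at least 5000 UMIs without a UMI of the 7 rule genes (left) and share expected to lack them in a draw of 5000 UMIs (right), in percent, for each plate (points, shaped by sort session) by genotype, with the genotype's mean as a line and double mutant replicate 3 left out. On the right the 3 double mutant plates lie between 0.552% and 1.03%, below the lowest WT plate at 2.55%, and the WT and Rev1 knockout plates overlap.

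Depth moved with this share even after the draw. The expected share was 11.9% in wells of 5000 to 7500 UMIs and 12.7% in wells of 15000 to 20000, but 6.53% between 20000 and 30000 and 0.862% above 30000. The double mutant plates included were the deepest, with median UMIs of 32706.5, 38169 and 27283, against 10154.5 to 23312 in the other genotypes. Within wells of 5000 to 20000 UMIs the means were 9.52% in WT, 19.9% in Rev1 knockout, 12.9% in Pcna K164R and 2.42% in double mutants. The double mutant plates then stood at 2.87%, 1.66% and 2.73% over 66, 48 and 23 wells, and WT replicate 1 at 2.70%, so the double mutant and WT plates overlapped (difference -7.10 points, permutation p = 0.3, adjusted 0.5). The difference from Rev1 knockout was -17.5 points and that from Pcna K164R -10.5, each with an exact permutation p = 0.1 (adjusted 0.25). With double mutant replicate 4 left out, the double mutant mean in these wells was 2.27%, and the differences from WT, Rev1 knockout and Pcna K164R were -7.25, -17.6 and -10.6 points (exact permutation p = 0.6, 0.2 and 0.333). Within session 1 the share in all wells of at least 5000 UMIs was 2.55% in the WT plate, 8.16% in the mean of the Pcna K164R plates and 0.793% in that of the double mutant plates. Within session 3 it was 10.9% in WT, 8.03% in Rev1 knockout and 0.829% in the library labelled double mutant replicate 4. The only Rev1 knockout plate of session 2, at 27.8%, had no WT plate beside it.

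Without depth matching, non-cycling wells held less RNA relative to the spike-in. Their median UMIs per ERCC UMI were 23.1 and 18.7 in WT replicates 2 and 3, against 30.4 and 25.7 in the cycling wells of those plates. In Rev1 knockout replicates 1, 2 and 3 they were 18.6, 15.7 and 14.3 against 25.7, 26.9 and 29.0, and in Pcna K164R replicates 1 and 2 they were 25.3 against 48.3 and 17.9, a difference of -12.1. The value was thus lower in 7 of 7 plates, by a mean of 11.8 ± 5.77 (SD). An exact 2-sided sign-flip permutation test over the 7 plates gave p = 0.0156, the smallest it can give (adjusted 0.0469 over the 3 measures tested). ERCC UMIs themselves differed less, with plate means of 542 and 610 (permutation p = 0.109). The rule favours wells with few UMIs, the numerator of the spike-in ratio, so the test of that ratio is not independent of the rule. Against cycling wells of the same plate matched within 0.1 log10 units of UMIs the difference in the ratio was -2.78 (permutation p = 0.234, adjusted 0.391). At a depth of 5000 UMIs both classes held similar numbers of genes, 2262 and 2256 in the mean of plate medians (permutation p = 0.969). The mitochondrial share of UMIs was 8.03% and 8.62% (permutation p = 0.141, adjusted 0.211). Only 2 plates reached the 10 wells per class that the planned comparison asked for, where the spike-in ratio differed by -7.06 and the smallest possible permutation p was 0.5.

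**Figure D2:**
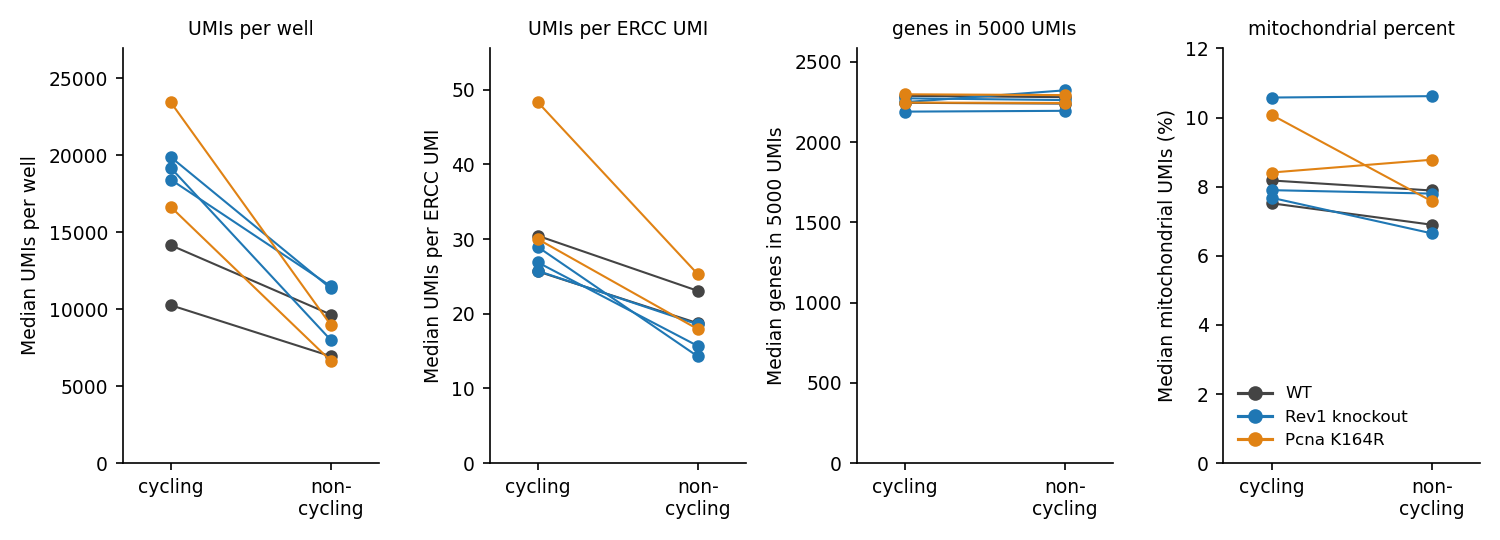
Median UMIs per well, UMIs per ERCC UMI, genes in 5000 UMIs and mitochondrial percentage in non-cycling and cycling wells, a line for each of the 7 plates coloured by genotype. The UMIs per ERCC UMI are lower in the non-cycling wells of all 7 plates, and the mean number of genes is 2262 and 2256.

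Against the sort markers, 45 of the 58 wells (77.6%) held a UMI of Kit, the stem cell factor receptor, among 5000 UMIs drawn, and cycling wells weighted to the same plates did so in 80.5%. Ly6a, which encodes Sca-1, was seen in 28 of 58 (48.3%) against 25.9%, and 5 wells held neither. Cd34 was seen in 45 wells and the pan-leukocyte Ptprc in 44. Hlf, a transcription factor gene of stem cells, was seen in 45 wells (77.6% against 71.7%) and Flt3, the cytokine receptor of multipotent progenitors with lymphoid potential, in 38 (65.5% against 55.8%). Both were seen in 26 wells, Hlf alone in 19, Flt3 alone in 12 and neither in 1. Some markers of committed cells were rare in both classes. Klf1 (erythroid), Pf4 (megakaryocyte) and Dntt (lymphoid) were each seen in 1 well (1.72%), against 4.00%, 2.35% and 0.173% of cycling wells, and Car1 (erythroid) in none against 1.91%. Others were seen more often: Mpo, a myeloid granule gene, in 29 wells (against 47.8%), Prtn3, of the same granules, in 25 (43.1% against 50.5%) and Cd79b, of the B cell receptor, in 16 (27.6% against 22.1%). Gp9, a platelet glycoprotein, was seen in 10 (17.2% against 10.4%) and Cpox, of haem synthesis, in 8 (13.8% against 21.1%). Of the marker lists, 11 of 14 hepatocyte genes, 7 of 10 neutrophil genes and 16 of 33 erythroid genes in the files had no UMI in the 58 wells. Of 10 B lineage genes 6 had none, among them Vpreb1, which was seen in 0.847% of cycling wells, while Cd79b gave 19 UMIs and Bank1 gave 8 in 5 wells (8.62% against 9.28%).

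The wells differed in their stem cell and progenitor markers. The summed UMIs of 33 HSC marker genes ran from 4 to 46 of 5000 with a median of 26, and those of lymphoid priming genes from 3 to 49 with a median of 13. A well of WT replicate 2 held 7 UMIs of HSC markers and 48 of lymphoid priming genes, and one of Rev1 knockout replicate 3 held 4 and 49, while a well of Pcna K164R replicate 2 held 45 and 7. These wells were chosen after their values were seen. Elsewhere in Pcna K164R replicate 2, a well of 6641 UMIs held 628 UMIs of mast cell and basophil markers and 51 of macrophage markers beside 24 of HSC markers. The next highest non-cycling wells held 3 and 3 of those lists. Among cycling wells, 25 and 52 of 2586 held at least 20 UMIs of the mast cell and macrophage lists. In the comparison with cycling wells, leaving the well out changed no direction or call of the genes named below.

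**Figure D3:**
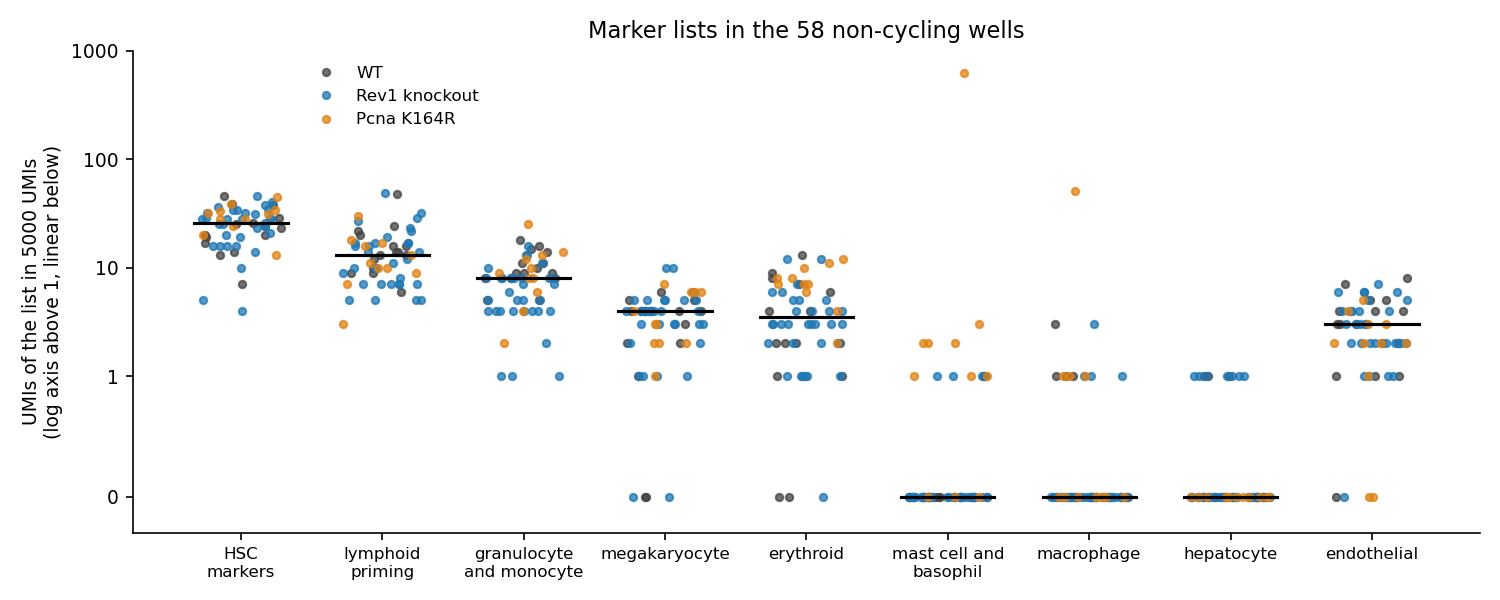
UMIs of each marker list among 5000 drawn from each of the 58 non-cycling wells (points, coloured by genotype), with the median as a bar, on an axis that is logarithmic above 1 and linear below. HSC markers have a median of 26, and a single Pcna K164R well stands apart with 628 mast cell marker UMIs.

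The genes of the cell cycle that the rule did not name followed it, and since they move with the 7 genes in any dividing cell they are given without a test. Of 158 tested genes on the lists of S phase, of G2 and mitosis, and of histones, the median log2 fold change of non-cycling over cycling wells was -1.50 over the 7 plates, beside 0.041 over all 8080 genes tested. The 81 G2 and mitosis genes had a median of -2.36, and their summed level was 9236 CPM against 19650 in the medians of plates. The 74 S-phase genes had a median of -1.03, and their sums were 4748 and 9292 CPM. Both sums were lower in 7 of 7 plates. Against depth-matched cycling wells the median log2 fold changes of the G2 and mitosis list and of the S-phase list were -2.002 and -0.88. Single non-cycling wells varied widely. They held 5 to 63 UMIs of S-phase genes among 5000 (median 19, upper quartile 32) and 19 to 102 of G2 and mitosis genes (median 38.5, upper quartile 47). The name thus does not show that each well lacked transcripts of S phase or mitosis. Pcna itself stood at 0, 267 and 400 CPM in the lowest, median and highest plate of non-cycling wells and at 478, 787 and 895 in cycling wells, with no overlap in the draw of 5000 UMIs. With all UMIs the order turned in Rev1 knockout replicate 2, where Pcna stood at 705 CPM in non-cycling and 517 in cycling wells. The other 6 plates held 216 to 347 against 492 to 887 CPM, among them Pcna K164R replicate 1, at 0 in the draw, with 279. Tk1, the S-phase thymidine kinase, was seen in 1 of 58 wells against 29.97% of cycling wells, and Mcm5 of the replicative helicase in 18 wells (31.0% against 60.6%). Ube2c, which primes mitotic proteins for destruction, gave 6 UMIs in the 58 wells, while 11 of the 84 G2 and mitosis genes, among them Nusap1 and Anln, gave none. Tubulin Tuba1b, which resting cells also need, was lower in 7 of 7 plates but not absent, at 733, 1000 and 1600 CPM against 1629, 2255 and 2701. Ccnd2, the D-type cyclin that starts G1, was seen in 48 wells (82.8% against 79.3%). The 21 tested G1 regulators and CDK inhibitors had a median of -0.17 and none passed the test. Cdkn1a gave 9 UMIs in 8 wells and a log2 fold change of 0.94 ± 0.62 (SE; edgeR adjusted p = 0.661).

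For genes outside those lists, UMIs of the wells drawn to 5000 were summed per plate and class and tested with edgeR's quasi-likelihood test with the plate as a block. In the planned comparison, on WT replicate 3 and Rev1 knockout replicate 1 (38 non-cycling wells), 34 of 6477 genes (0.525%) passed an adjusted p of 0.05, 1 higher (0.0154%) and 33 lower (0.509%), of which 23 were on the cell cycle lists. The other 11 were Ptpre, which was higher, and S100a8, 2810417H13Rik, Mpo, Rn45s, Nucks1, Elane, Prtn3, Ctsg, Mir5109 and Fbxo5, which were lower. The fit left 1 residual degree of freedom. In Rev1 knockout replicate 1, S100a8 stood at 0 CPM in both classes, and Elane and Ctsg at 0 against 0.744 and 6.70 in cycling wells. The calls of S100a8, Elane and Ctsg thus rested mainly on WT replicate 3. DESeq2 called none (45 genes at an unadjusted p under 0.05), and no gene passed against depth-matched wells (116 unadjusted). All 11 were also called in the comparison over 7 plates, which contains these 2 plates. That comparison, added after the data were seen and scaled to total UMIs, used all 58 wells. It called 158 of 8080 genes (1.96%), 24 higher (0.297%) and 134 lower (1.66%). Outside the cell cycle lists 83 of 7922 (1.05%) were called, 24 higher (0.303%) and 59 lower (0.745%). The split depended on scaling: TMM, which centres each sum on its middle genes, moved the median of all genes from 0.041 to -0.26 and called 1 higher and 243 lower. TMM was the planned scaling and was used in the comparison on 2 plates. Scaling the 7-plate comparison to total UMIs thus departed from the plan. Against depth-matched wells 22 of 8072 genes (0.273%) were called, 6 higher (0.0743%) and 16 lower (0.198%). All 24 higher genes kept a positive sign there but none was called, and of the 59 lower genes 54 kept their sign and 4 were called (Rn45s, 2810417H13Rik, Nucks1 and mt-Rnr1). Of these, 2810417H13Rik is on a wider list of cell division markers used for the shares, and Nucks1 encodes a chromatin protein of S phase. Neither call is therefore a finding independent of the rule.

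Rn45s, the 45S precursor of ribosomal RNA, had the smallest p of the genes outside the cell cycle lists. It stood at 2089, 5255 and 26815 CPM in the lowest, median and highest plate of non-cycling wells and at 3289, 10966 and 29698 in cycling wells. The plates differed more than the classes, but within each of the 7 plates the non-cycling wells were lower. The log2 fold change was -0.90 ± 0.07 (SE; edgeR adjusted p = 2.09e-29), and against depth-matched wells it was -0.93 (adjusted p = 3.07e-11). Its size varied between plates, at 6200 against 26349 CPM in Rev1 knockout replicate 2 but 26815 against 29698 in replicate 1 and 9800 against 10966 in replicate 3. The fit shares its estimate of spread between genes, so its SE and p do not measure this variation between plates. The mitochondrial ribosomal RNA mt-Rnr1 fell by 0.49 ± 0.10 (edgeR adjusted p = 1.67e-04) and by 0.58 against depth-matched wells (adjusted p = 0.0183), lower in 6 of 7 plates. The mitochondrial respiratory gene mtNd1 fell by 0.44 ± 0.09 (adjusted p = 1.45e-04), lower in 7 of 7 plates, but was not called against depth-matched wells (-0.35, adjusted p = 0.591). Of 15 mitochondrially encoded genes tested, 5 fell and none rose. Of all genes 1.66% fell and 0.297% rose, and of those outside the cell cycle lists 0.745% and 0.303%. Among the 5, only mt-Rnr1 was called against depth-matched wells.

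Some of the genes that fell are known from replication and repair but were on no cell cycle list. Such genes can move with the rule genes in dividing cells, so their p values are not independent of the rule. 2810417H13Rik encodes the PCNA-associated factor PAF15 and gave 8 UMIs in 58 wells, where the cycling wells' rates would have given 69.4. Its plates ranged from 0 to 100 CPM in non-cycling and from 202 to 334 CPM in cycling wells, with no overlap, and it was called in both comparisons of depth (log2 -3.11 ± 0.41, edgeR adjusted p = 4.65e-11, and depth-matched -2.42, adjusted p = 0.0116). Nucks1, a chromatin protein of S phase, stood at 133, 200 and 300 CPM against 325, 525 and 580, again with no overlap (log2 -1.29 ± 0.23, adjusted p = 5.11e-06, depth-matched -1.19, adjusted p = 0.0178). Fignl1, an ATPase of DNA repair, gave 1 UMI where 21.5 would have been given, a ratio of 0.0465 (exact Poisson 95% interval 0.00118 to 0.259, which counts each UMI as independent).

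Of 19 granulocyte and monocyte genes tested, 5 fell in the thinned wells and none rose, against 1.66% of all genes called lower (0.745% outside the cell cycle lists). The 5 were Mpo, Elane, Prtn3, Ctsg and Ms4a3, the other 14 did not pass the test, and the list median was -0.10. Elane, neutrophil elastase, gave 11 UMIs in 6 wells (10.3% against 13.8% of cycling wells) and fell by 1.96 ± 0.45 on the log2 scale (edgeR adjusted p = 0.00161). The neutrophil alarmins S100a8 and S100a9 gave 2 UMIs each where 42.2 and 27.0 would have been given, ratios of 0.0474 (0.00574 to 0.171) and 0.0742 (0.00898 to 0.268). The shares of wells differed less, at 3.45% against 5.63% for S100a8 and 3.45% against 4.60% for S100a9. The intervals of these ratios and of those that follow count each UMI as independent. They are too narrow where a few wells hold most of the UMIs, and they do not cover the spread between wells or plates. The metallothioneins Mt1 and Mt2 gave 2 and 1 UMIs for 33.98 and 33.03 given by the cycling rate, ratios of 0.0589 (0.00713 to 0.213) and 0.0303 (7.66e-04 to 0.169), and Beta-s, a beta-globin entry, gave 5 for 42.6. Mpo, myeloperoxidase, was seen in 29 of 58 wells, against 47.8% of cycling wells, and its plates overlapped, at 100, 255 and 500 CPM against 195, 308 and 908. None of these genes was called against depth-matched wells, where S100a8 had -8.0e-04, S100a9 0.65, Mpo 0.040, Ctsg 0.73 and Elane -0.19 on the log2 scale. Without WT replicate 3, Mpo, Prtn3, Elane, Ctsg and S100a9 lost their calls, and Mpo and Prtn3 did so too without Rev1 knockout replicate 1. In cycling wells S100a8 and Mt2 came with high rule-gene counts: S100a8 stood at a mean over plates of 7.25 CPM in wells with fewer than 1 rule UMI per 5000 and at 285 CPM in those with 5 to 15, and Mt2 at 7.63 and 360 CPM.

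Among genes that were higher, Notch1, the receptor that directs T-cell fate, was higher in 7 of 7 plates. Its plates stood at 133, 300 and 400 CPM in non-cycling and 89.0, 113 and 127 CPM in cycling wells, so that the lowest non-cycling plate lay just above the highest cycling plate (log2 1.08 ± 0.26, edgeR adjusted p = 0.00403). It was seen in 44.8% of wells against 37.0% and was not called in the planned comparison on 2 plates (log2 0.82 ± 0.33, edgeR adjusted p = 0.442). Cpne8, a copine that binds membranes in response to calcium, stood at 600, 700 and 1467 CPM against 243, 361 and 550, also with no overlap (log2 0.95 ± 0.17, adjusted p = 9.81e-06, DESeq2 adjusted p = 0.00443). It was seen in 55 of 58 wells (94.8% against 76.96%). Ptpre, a receptor-type tyrosine phosphatase, was higher in 6 of 7 plates (log2 0.99 ± 0.22, edgeR adjusted p = 0.00111). Nipal3, of a family of magnesium transporters, had 1.70 ± 0.43 (adjusted p = 0.00734) and remained called with TMM (adjusted p = 0.0479). Against depth-matched wells Notch1, Cpne8, Ptpre and Nipal3 had log2 values of 0.95, 0.67, 0.99 and 1.67 and edgeR adjusted p of 0.78, 0.374, 0.28 and 1. With TMM the first 3 of these had 0.78, 0.58 and 0.61 (adjusted p 0.138, 0.18 and 0.244). Notch1 and Trim34a lost their calls without WT replicate 3, Ccl4 without Rev1 knockout replicate 3, and Ptpre, Nipal3, Oasl2, Trim34a and Ccl4 lost theirs without Rev1 knockout replicate 1.

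**Figure D4:**
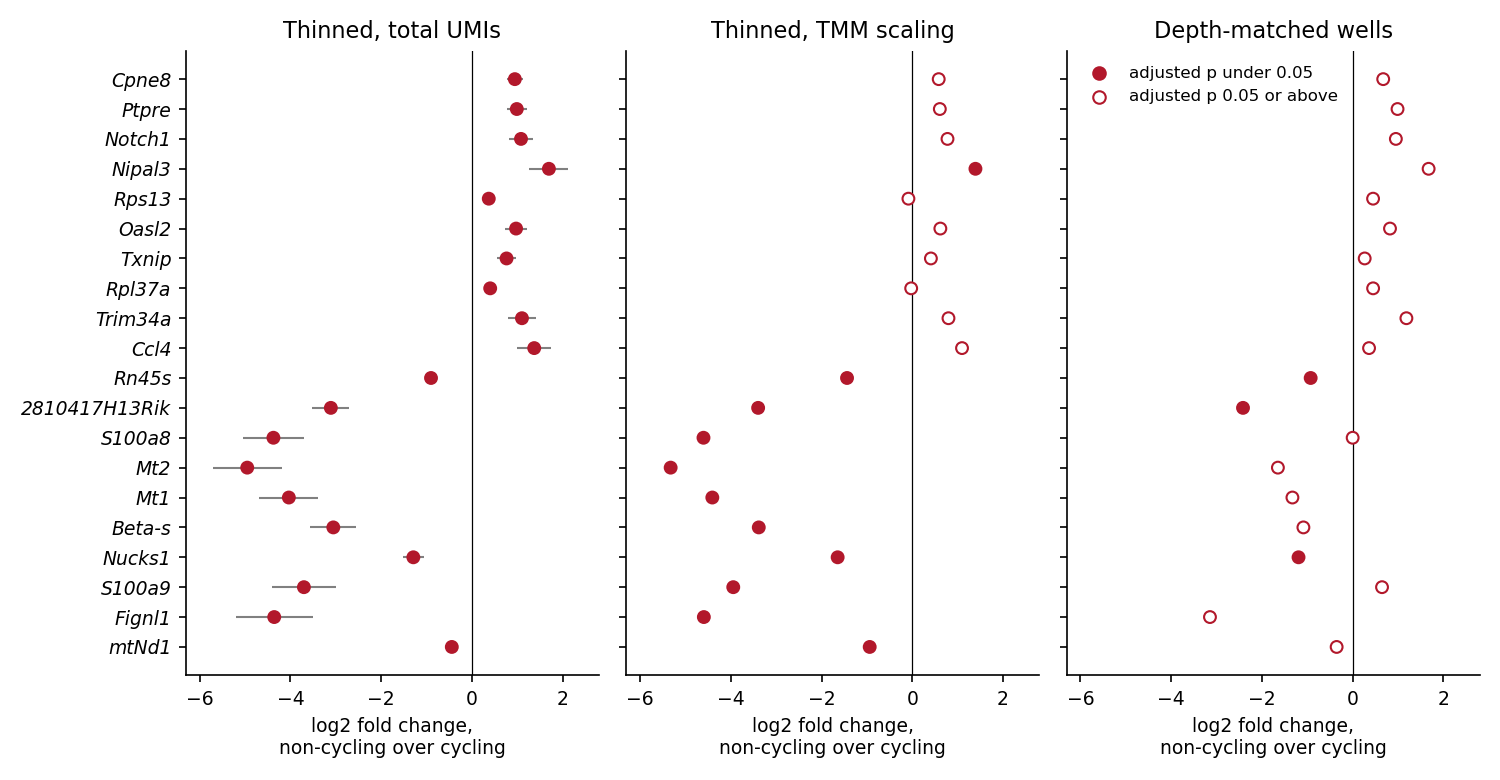
Log2 fold change of non-cycling over cycling wells for the 10 higher and 10 lower genes with the smallest p outside the cell cycle lists, under scaling to total UMIs (with SE bars), TMM scaling and depth matching, filled where the adjusted p is under 0.05. Rn45s, 2810417H13Rik and Nucks1 are filled in all 3 panels, and no higher gene is filled in the depth-matched panel.

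The gene lists of stem and progenitor identity leaned upward with few members called. Of 25 HSC markers, Ly6a rose (log2 1.08 ± 0.31, edgeR adjusted p = 0.0257) and none fell, and the list's sum was 4850 against 4058 CPM in the medians of plates, higher in 7 of 7. Its median was 0.21, but 0.068 against depth-matched wells and -0.072 with TMM, beside 0.041, 0.041 and -0.26 over all genes. Hlf had 0.47 ± 0.18 (adjusted p = 0.201) and Mllt3, a chromatin reader of stem cells, 0.87 ± 0.29 (adjusted p = 0.0889). Of 15 lymphoid priming genes, Notch1 rose and 14 had positive values (median 0.42, depth-matched 0.29). Flt3 on that list had 0.45 ± 0.22 (adjusted p = 0.433). Of 16 genes tied to FoxO and quiescence, Txnip, which binds thioredoxin and restrains glucose uptake, rose by 0.77 ± 0.20 (edgeR adjusted p = 0.0144). The median of that list was 0.28, but 0.094 against depth-matched wells and -0.035 with TMM. Its sum had a plate mean of 2581 CPM in non-cycling wells and 2469 CPM in wells with above 0 but under 1 rule UMI per 5000. Ly6a lost its call when any of 4 plates was left out, and Txnip without Pcna K164R replicate 2 or Rev1 knockout replicate 3.

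Of 42 interferon-stimulated genes tested, 3 rose and none fell, against 0.297% of all genes called higher, with a median of 0.47 (depth-matched 0.39, TMM 0.12). They were Oasl2 (0.98 ± 0.25, edgeR adjusted p = 0.0081), an oligoadenylate synthetase-like gene, and the membrane proteins Ifitm1 (0.49 ± 0.14, adjusted p = 0.0211) and Ifitm3 (0.57 ± 0.16, adjusted p = 0.0266). Trim34a, a gene of a family induced by interferon, had 1.10 ± 0.30 (adjusted p = 0.0167), and the chemokine Ccl4 1.38 ± 0.38 (adjusted p = 0.0189). B2m, the light chain of MHC class I, rose by 0.41 ± 0.11 (adjusted p = 0.0256), the only called gene of the 11 tested on that list, and had -0.014 with TMM. Ifitm1, Ifitm3 and B2m each lost the call in at least 4 of 7 comparisons that left out a plate. The sum of the interferon-stimulated list was higher in 7 of 7 plates, at medians of 5273 and 3908 CPM.

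Of 75 cytosolic ribosomal protein genes, 4 rose and none fell, against 0.297% of all genes called higher, and 65 had positive values. Rps13 had 0.37 ± 0.10 (edgeR adjusted p = 0.00753) and Rpl37a 0.41 ± 0.11 (adjusted p = 0.0159), but -0.085 and -0.024 with TMM, and the list median of 0.17 became -0.29. Rpl37a also lost its call without WT replicate 2 and without either replicate 2 or 3 of Rev1 knockout. The sum of the list was 203148 against 188583 CPM and higher in 7 of 7 plates. The 47 genes of the Myc network and ribosome biogenesis had no call and a median of -0.19. Of 29 nucleotide synthesis genes 28 had negative values (median -0.40) with none called, and their sum was lower in 7 of 7 plates. Of 16 DNA damage tolerance genes tested, 2 were called lower, against 1.66% of all genes (0.745% outside the cell cycle lists). They were Pcna, which is also on the S-phase list and is given as a description, and Rad18, the ubiquitin ligase that modifies PCNA at the lysine changed in Pcna K164R. Rad18 was called in 0 of the 7 comparisons that left out a plate (edgeR adjusted p = 0.0395 over all 7). Rad18 gave no UMI where the cycling rate would have given 7.02, which is at least 2.34-fold lower against a floor of 3 counts over the class. None of 23 p53 targets, 19 glycolysis genes or 73 nuclear-encoded respiratory genes was called.

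The same measures were set out along the number of rule-gene UMIs per 5000 in all wells of the 7 plates, as a description. The class with fewer than 1 but above 0 (215 wells, median 14034 UMIs) was like the 58 non-cycling wells in G2 and mitosis genes, with plate means of 8612 and 9300 CPM, and in HSC markers, with 5507 and 4914 CPM. It differed in Rn45s, at 15129 against 8415 CPM, and in Notch1, at 139 against 293 CPM. S-phase genes rose along the classes from 4772 CPM to 11954 CPM in wells of 5 to 15 rule UMIs and were 8401 CPM in wells of 15 or more, while G2 and mitosis genes went on to 31348 CPM. HSC markers were lowest, at 3147 CPM, in the class where S-phase genes were highest. Cpne8 went from 795 CPM in non-cycling wells through 508 and 453 to 298 and 359 CPM.

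**Figure D5:**
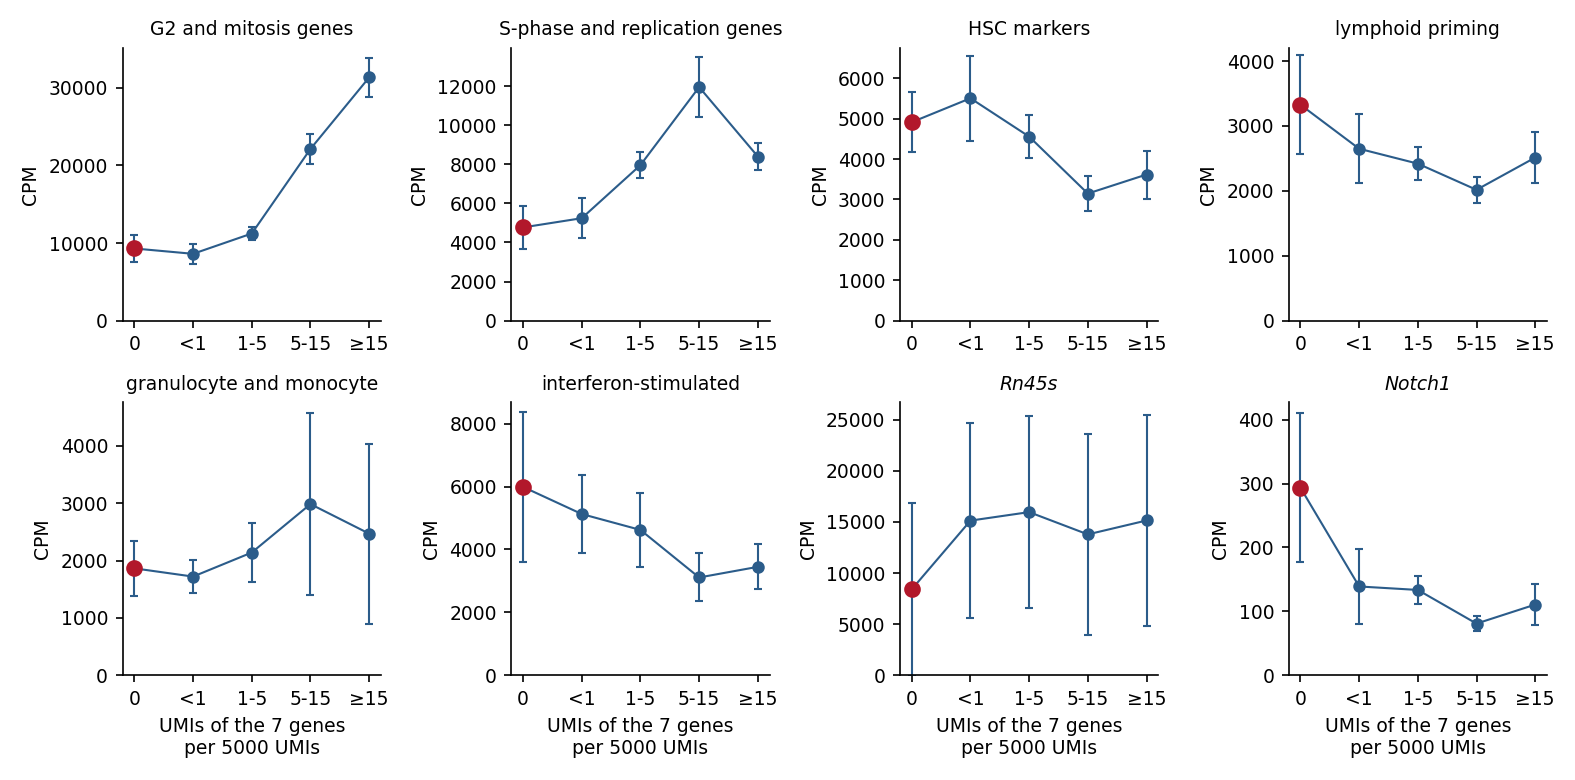
Mean CPM over 7 plates, with SD (the lower bar of Rn45s in the first class ends at the axis), of 6 lists and 2 genes in classes of wells by rule-gene UMIs per 5000, from none (58 wells) to 15 or more (352 wells), the non-cycling wells in red. HSC markers are 4914 CPM in wells without rule UMIs and 3147 CPM in wells of 5 to 15, while Rn45s is lower in the first class than in the 4 others.

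Genotypes could be compared within the non-cycling wells for WT, Rev1 knockout and Pcna K164R, since no double mutant plate held such a well. With the 10 wells per plate first planned, a single plate per genotype remained and no test was possible. An added comparison used the 7 plates with at least 2 wells and no term for session. Rev1 knockout and WT differed in 1 of 408 genes (0.245%), the microRNA locus Mir5109, at 288 and 271 CPM in the WT plates and 1098, 1586 and 1010 CPM in the Rev1 knockout plates, with no overlap (log2 2.12 ± 0.37, edgeR adjusted p = 0.0101). The Pcna K164R plates stood at 167 and 174 CPM. Within session 3 alone Mir5109 was again called, with Rn45s, Ifitm3 and Ppia. Xist, the RNA of X inactivation, was listed at 0 in the non-cycling wells of both WT plates and of Pcna K164R replicate 1 and stood at 220 to 448 CPM on the other 4 plates (log2 7.93 ± 1.71 for Rev1 knockout against WT, edgeR adjusted p = 0.0611, depending on the prior count). With classes drawn at 5000 UMIs, Xist was called higher in Rev1 knockout (log2 8.59) and the Y-linked Ddx3y lower (log2 -7.89), each with an edgeR adjusted p = 0.0436. Every Rev1 knockout plate with such wells held Xist and neither WT plate did. The sex of the fetuses and the genotype therefore cannot be told apart in this comparison, also for Mir5109. Pcna K164R and WT differed in 0 of 408 genes (0.0%; 23 at an unadjusted p under 0.05, and DESeq2 called 0), and as both Pcna K164R plates were of session 1 and both WT plates with such wells of session 3, genotype and session cannot be told apart there. Other settings called up to 21 genes, of which up to 7 were on the mast cell list (among them Tpsb2, Cma1 and Cpa3). In the 4 settings run again without wells rich in mast cell or macrophage markers, 0 to 3 genes were called and none was on that list. Rev1 gave 2 UMIs in the 58 wells, 1 in Rev1 knockout replicate 1 and 1 in Pcna K164R replicate 2, so it could not check the labels at this depth.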

How the data were processed

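The deposited UMI counts per gene and well were made by the authors from SORTseq libraries sequenced on a NextSeq500, per the labels' protocols. BWA 0.7.15 and GRCm38/mm10 are named in the submitters' processing notes without a role, and which program counted and which annotation it used is stated in no source used here. A second deposited file, expected counts per well, equals the UMI counts corrected for collisions among 4096 barcodes, read from the values (within 0.01), and served as an alternative after rounding. Genotypes came from the labels. Members, lists, tests and alternatives were chosen with earlier results of these data known. No doublet call was made. Wells were thinned once to 5000 UMIs with a fixed seed, summed per plate and class, filtered for low counts and tested with edgeR 4.0.16 (limma 3.58.1, R 4.3.3), quasi-likelihood, Benjamini-Hochberg adjusted over all genes tested. The SE printed with edgeR values is the log2 fold change over the square root of the F statistic, whose estimate of spread is shared between genes. Scaling was by TMM, as planned, in the 2-plate comparison. The added 7-plate comparisons, of classes and of genotypes, were scaled to total UMIs instead. DESeq2 1.42.0 was an alternative. Shares and well measures were tested by exact permutation (scipy 1.17.1). Named genes were the 10 higher and 10 lower with the smallest p outside the cell cycle lists and up to 4 per list by p. Tested on simulated data for the 7-plate comparison (8080 genes), the test recovered 7.29% of genes changed by 1 log2 unit and 57.8% of those changed by 2. These were 7 and 52 genes, beside 7 false calls. The simulation gave all genes the same spread and no difference between plates in level or in class change. It therefore does not show how the test performs on the variation of the real plates.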

Additional observations from a re-analysis of the deposited data

Results flagged for a closer look

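Of 39 sets of 7 plate values tested, 11 had a plate far from the others by Dixon's test, where chance would flag about 1 in 20 for normal values of equal spread. That rate does not hold where all plates but 1 stood at 0, as for Mt1, Mt2, S100a8 and Fignl1, since any UMI is then flagged. The plate sums also rest on 2 to 27 wells, so the 11 cannot be set against it. The number of genes in 5000 UMIs was higher by 73.5 in the non-cycling wells of Rev1 knockout replicate 2 than in its cycling wells, against differences of -11 to 5 elsewhere. In Rev1 knockout replicate 3 (3 wells), Cpne8 reached 1467 CPM against 600 to 711 on the other plates, B2m 3733 against 1345 to 2000, Mt1 133 against 0, and S100a9 66.7 against 0 to 18.2. In Rev1 knockout replicate 2 (2 wells), Flt3 reached 900 CPM against 200 to 356, and Mt2 stood at 100 against 0, which is 1 UMI. In Rev1 knockout replicate 1, Rn45s stood at 26815 CPM against 2089 to 9800, and Fignl1 at 7.41 against 0, which is again 1 UMI. In WT replicate 3, Elane stood at 163.6 CPM against 0 to 50, and S100a8 at 36.4 against 0. The causes were not tested.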

How the results depend on the processing

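No paired analysis was possible because replicate numbers only follow the order of deposit and pair no plates between genotypes; the classes were compared within plates. Of the 7 plates, 5 gave fewer than 10 non-cycling wells. The 7-plate count of 158 became 244 with TMM, 45 with DESeq2, 22 against depth-matched wells (10 with their own low-count filter, 8 also without Rev1 knockout replicate 1), 461 unthinned, 53 in wells of at least 10000 UMIs, 30 on the WT plates alone, and 101 to 150 when a plate was left out, lowest without Rev1 knockout replicate 1. The 2-plate count of 34 became 0 with DESeq2, 0 with depth-matched wells under either filter, and 253 unthinned. Signs turned with TMM for Rps13 (-0.085), Rpl37a (-0.024) and B2m (-0.014), and in wells of at least 10000 UMIs for Ccl4 (-0.38) and B2m (-5.5e-04). Against depth-matched wells they turned for Ctsg (0.73), Mpo (0.040) and S100a9 (0.65), and without Rev1 knockout replicate 1 besides for Ctsg (1.44), Mpo (0.56), S100a9 (0.71), Prtn3 (0.35), Ccl4 (-0.10) and Hlf (-0.063). UMIs per ERCC UMI against depth-matched wells differed by -2.78 over 7 plates and by 0.241 over 2, the mitochondrial percentage over 2 plates by 0.04 without WT replicate 3 and -0.62 without Rev1 knockout replicate 1, and genes in 5000 UMIs by -14.6 depth-matched and by -4.5 (without Rev1 knockout replicate 2) to 9.58 leaving out a plate. The share in Pcna K164R minus WT, 0.0149 points, was -1.18 without thinning, -0.795 from 10000 UMIs, -3.40 from 2000 UMIs, -1.63 allowing 1 rule UMI, -0.50 with a wider marker list, -0.0199 in wells of at most 20% mitochondrial UMIs, and -2.79 to 4.85 when a plate was left out, lowest without WT replicate 1 and highest without WT replicate 3. Rev1 knockout minus WT became -0.12 without Rev1 knockout replicate 1. Calls within non-cycling wells between Pcna K164R and WT went from 0 to 11 without a filter, 9 with flow cell as a term, 21 with classes drawn at 5000 UMIs, and 0 to 10 leaving out a plate. Genes of the mast cell list made up 6 of the 11, 5 of the 9 and 7 of the 21. Without the well rich in mast cell and macrophage markers (added after the data were seen) the calls were 0, 3 without a filter and 2 with flow cell as a term, and without all such wells 0 with drawn classes, none of them on that list. Those between Rev1 knockout and WT went from 1 to 2 with TMM, 5 without a filter, 5 with a term for session, 5 with one for flow cell, 4 in session 3 alone, 3 with drawn classes, and 1 to 4 leaving out a plate; without the well rich in mast cell markers they were 2, 6 without a filter and 5 with flow cell as a term. The causes were not tested. Planned comparisons with double mutant non-cycling wells, within session 1, and the 2-plate comparison from 10000 UMIs or without a plate could not be fitted and were not run.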
